A study of Mus musculus with 64 samples.

Results

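The 10 genes described here encode the 3 D-type cyclins (Ccnd1, Ccnd2 and Ccnd3), the CIP/KIP inhibitors Cdkn1a and Cdkn1b, the INK4 inhibitors Cdkn2a, Cdkn2b, Cdkn2c and Cdkn2d, and the retinoblastoma protein Rb1. They were picked by symbol from the 55385 genes counted in 8 mouse mammary tumors. All 10 passed the filter on low counts that left 22187 genes for testing. D-type cyclins bind the kinases Cdk4 and Cdk6 in early G1, and the active kinases phosphorylate Rb1, which then releases E2F factors that switch on genes of DNA replication. INK4 proteins bind Cdk4 and Cdk6 directly, whereas p21 and p27, the products of Cdkn1a and Cdkn1b, bind assembled cyclin-CDK complexes and block Cdk2. In the mammary gland cyclin D1 is best known for its part in alveolar growth during pregnancy and as an oncogene product of breast cancer.

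The tumors came from 4 female PyMT mice, which express the polyoma middle T antigen in the mammary gland, with 2 tumors from each mouse. The heterozygous control G144 was Abi1 fl/wt and Cre-negative (tumors 6 and 8), and the heterozygous KO G164 was fl/wt and Cre-positive (tumors 3 and 6). The homozygous control G184 was fl/fl and Cre-negative (tumors 6 and 9), and the homozygous KO G174 was fl/fl and Cre-positive (tumors 1 and 6). All 4 mice carried the PyMT transgene and at least a single floxed Abi1 allele. The Cre line is driven by MMTV and is described by the study as mammary-specific, so that Abi1 was to be lost in mammary epithelium. Loss of Abi1 in the other cells of a tumor was not measured here. The PyMT line was C57BL6 and the Cre line of mixed strain. By the study's animal records G144 and G174 were the younger mice and G164 and G184 the older mice.

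Each genotype was a single mouse, so genotype and mouse cannot be told apart, and p-values rest on the spread between tumors within mice. The difference between the homozygous and the heterozygous change is also the contrast of the younger with the older mice, so that gene dose and age cannot be told apart. Levels are counts scaled to library size (CPM, with TMM factors), and differences are log2 fold changes, with their standard errors (SE), from the quasi-likelihood test of edgeR with Benjamini-Hochberg adjustment over all genes tested. A gene was called when its adjusted p was under 0.05. The tumors had 50346075 to 69264893 gene counts. Abi1, the deleted gene, was at 111 to 130 CPM in the 4 control tumors, at 63.1 and 66.7 CPM in G164, and at 8.93 and 6.47 CPM in G174. The 8 luminal epithelial markers summed to 3778 to 4617 CPM, and none of them was at 0 in any tumor. In such bulk tissue, fewer cells of a type and less RNA per cell cannot be told apart.

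Promoter windows of 250 bases before to 30 bases after the start were taken from the RefSeq table of GRCm38.p6, which held 11 windows for 7 of the genes (Ccnd3, Cdkn1a, Cdkn1b, Cdkn2a, Cdkn2b, Cdkn2c and Cdkn2d). Ccnd1, Ccnd2 and Rb1 had no entry. The windows of Cdkn2a, Cdkn2b and Cdkn2c are shown because these INK4 genes varied most, Cdkn2a and Cdkn2b between tumors of a mouse and Cdkn2c between mice. Cdkn2a has a distal start for p19Arf and a proximal start for p16Ink4a, and the deposited counts merge both. Of Cdkn2c the upstream of 2 starts is shown, and the other window (chr4:109665343-109665622), which held none of the motifs searched, is left out. All 3 genes lie on the minus strand of chromosome 4. Capitals mark an E2F motif (TTTCCCGC, TTTCGCGC, TTTGCCGC or TTTGGCGC) or a GC box (GGGCGG), searched on both strands.
Cdkn2a, distal start, chr4:89294590-89294869, minus strand: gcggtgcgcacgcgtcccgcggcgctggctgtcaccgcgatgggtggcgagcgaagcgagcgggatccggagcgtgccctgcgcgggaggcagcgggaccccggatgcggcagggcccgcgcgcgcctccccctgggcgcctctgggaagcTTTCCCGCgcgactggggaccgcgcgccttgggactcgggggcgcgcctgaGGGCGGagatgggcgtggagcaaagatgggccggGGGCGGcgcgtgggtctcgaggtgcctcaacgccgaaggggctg
Cdkn2a, proximal start, chr4:89282163-89282442, minus strand: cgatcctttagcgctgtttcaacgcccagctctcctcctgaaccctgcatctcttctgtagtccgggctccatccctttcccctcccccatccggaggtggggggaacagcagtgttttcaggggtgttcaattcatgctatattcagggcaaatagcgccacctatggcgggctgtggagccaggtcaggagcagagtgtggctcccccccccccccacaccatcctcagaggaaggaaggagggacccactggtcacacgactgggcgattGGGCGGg
Cdkn2b, chr4:89311003-89311282, minus strand: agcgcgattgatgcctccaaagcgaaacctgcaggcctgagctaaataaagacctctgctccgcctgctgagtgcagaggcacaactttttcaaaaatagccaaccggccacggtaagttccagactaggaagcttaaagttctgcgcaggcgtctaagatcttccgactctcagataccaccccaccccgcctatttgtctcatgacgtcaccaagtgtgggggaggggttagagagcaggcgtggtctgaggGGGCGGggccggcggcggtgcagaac
Cdkn2c, upstream start, chr4:109666727-109667006, minus strand: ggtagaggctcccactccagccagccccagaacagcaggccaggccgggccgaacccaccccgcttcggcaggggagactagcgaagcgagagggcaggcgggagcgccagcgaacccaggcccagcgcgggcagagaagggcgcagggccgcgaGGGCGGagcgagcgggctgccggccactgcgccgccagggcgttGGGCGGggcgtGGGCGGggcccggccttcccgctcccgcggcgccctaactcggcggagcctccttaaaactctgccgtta

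The distal start of Cdkn2a held an E2F motif 99 bases before the start, and no other window of the 7 genes held any of the 4 E2F motifs searched. Among 32851 windows of the same length, 2.12% held such a motif. A GC box was found in 9 of the 11 windows, against 34.7% of all windows. The GAS motif TTCNNNGAA and the E-box CACGTG were in none of the 11, against 7.83% and 6.79% of all windows. No match overlapped a match of another motif. A match is a run of letters and not a measured binding site.

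Ccnd1, Rb1 and Cdkn1b were the most abundant of the 10 genes in CPM per kb of merged exons. Their medians over the 8 tumors were 66.6 CPM per kb for Ccnd1, 51.4 CPM per kb for Rb1 and 33.7 CPM per kb for Cdkn1b. The other genes had medians of 8.34 CPM per kb (Cdkn2c) and less, down to 2.001 CPM per kb for Cdkn2a. With the length of the longest transcript the first 3 ranks and the last stayed as they were, while Cdkn2c moved from rank 4 to rank 6 and Ccnd3 from rank 5 to rank 4. Ccnd1 made up 82.2% to 92.1% of the summed level per kb of the D-type cyclins in 7 tumors and 70.1% in tumor 1 of G174. Ccnd2 made up 2.04% to 9.16% and Ccnd3 5.87% to 23.5%. Of the 6 CDK inhibitors among the 10 genes, Cdkn1b held 47.7% to 64.9% of the summed level per kb. CDK inhibitors outside the 10 genes were not part of this sum.

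**Figure D1:**
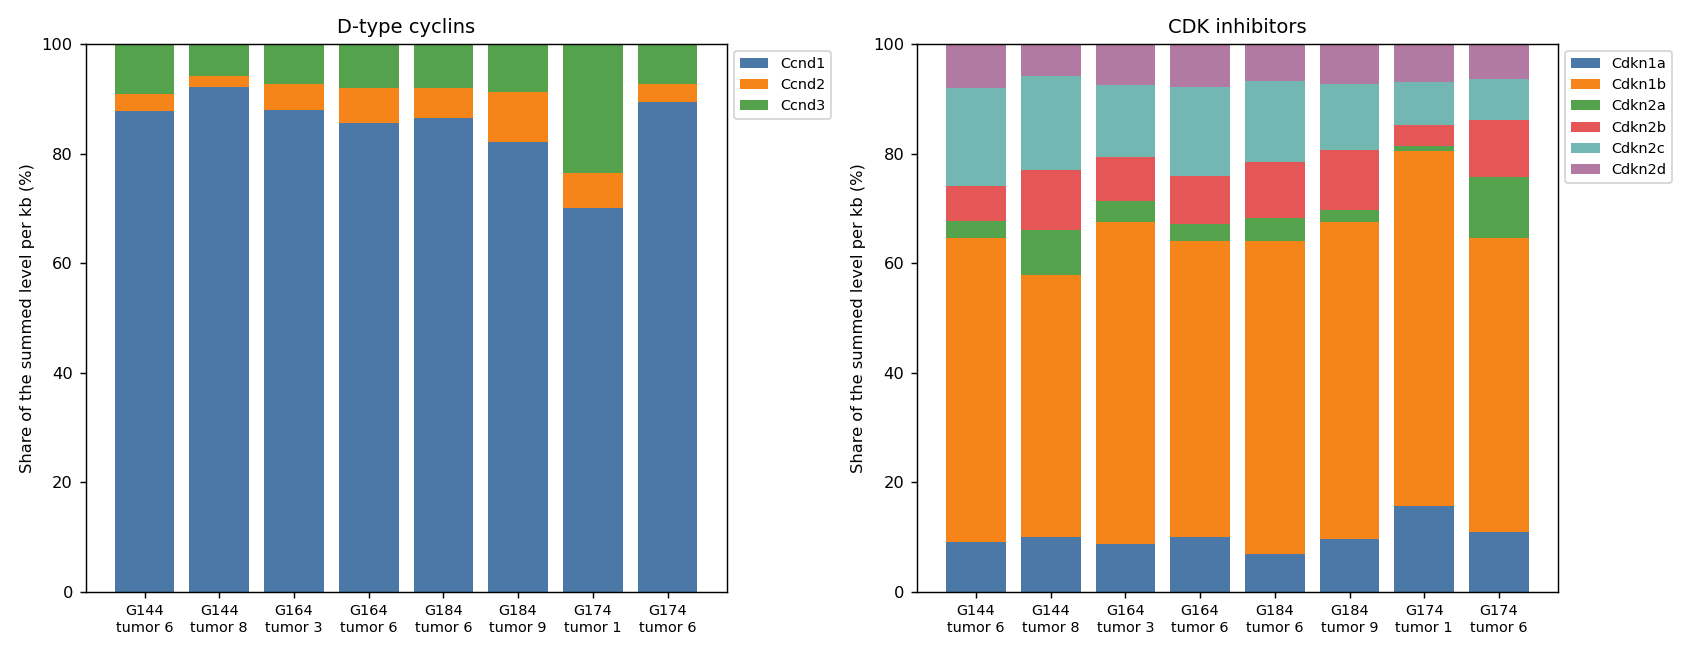
Share (%) of each gene in the summed level per kb of merged exons of the D-type cyclins (left) and of the CDK inhibitors (right), with a stacked bar for each of the 8 tumors. Ccnd1 and Cdkn1b take the largest share among the genes shown in every tumor, and tumor 1 of G174 stands apart with 70.1% Ccnd1 and 23.5% Ccnd3.

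Rb1 and Ccnd2 were the members that differed most firmly between mice, and both were higher in G164 than in G144 and lower in G174 than in G184. Among the 10 genes, 1 was called in heterozygotes (Rb1, higher), beside 4.01% of all genes tested. In homozygotes 2 were called (Rb1 and Ccnd2, both lower), beside 13.1% of all genes. The homozygous minus heterozygous difference was called for 3 members (Rb1 and Ccnd2, lower, and Cdkn1a, higher), beside 25.1% of all genes. The share of members called was thus 10%, 20% and 30%. With only 10 members each call adds 10%, so none of these shares can be told apart from the background. The median log2 fold change of the members was −0.16 in heterozygotes and −0.17 in homozygotes, beside 0.02 and 0.00 over all genes tested.

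The Cre-negative control mice also differed. Between G184 and G144, 2 members were called (Rb1 and Ccnd2, both higher in G184), beside 12.6% of all genes. No member was called between the younger mice G174 and G144, beside 0.0901% of all genes, with 1 member at an unadjusted p under 0.05. None was called between the older mice G164 and G184, beside 0.424% of all genes, and none had an unadjusted p under 0.05. By DESeq2 these counts were 1 (Cdkn2c) and 0. Between the Cre-positive mice G174 and G164, Rb1 alone was called, beside 7.1% of all genes. The test for any difference among the 4 mice called Rb1, Ccnd2 and Cdkn2c, beside 11.4% of all genes. These comparisons share mice with each other and are not independent.

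**Figure D2:**
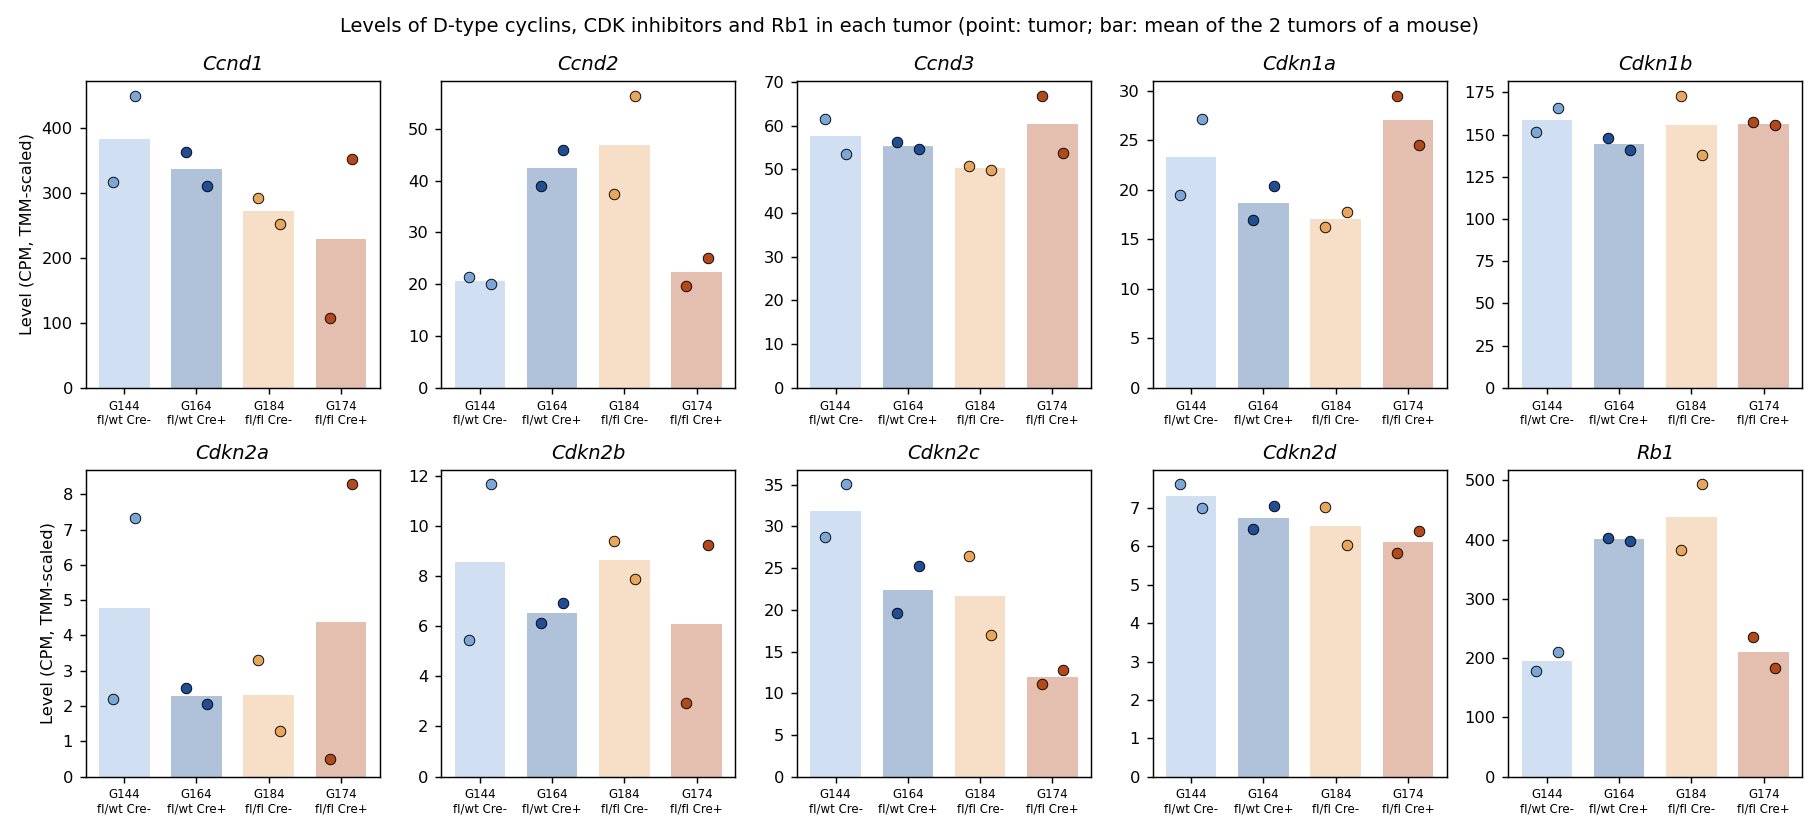
Level of each of the 10 genes in CPM (TMM-scaled, linear axes from 0) in each of the 8 tumors, by mouse. Points are single tumors, and bars give the mean per mouse (n = 2). Rb1 (383 to 493 CPM) and Ccnd2 (37.4 to 56.4 CPM) are higher in all 4 tumors of G164 and G184 than in any tumor of G144 or G174, and Ccnd1, Cdkn2a and Cdkn2b are far apart between the 2 tumors of G174.

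Rb1, the pocket protein that holds E2F factors inactive, lies on the minus strand of chromosome 14 from 73183673 to 73325822 (ENSMUSG00000022105.6, GRCm38). It was at 179 and 210 CPM in G144, at 403 and 397 CPM in G164, at 383 and 493 CPM in G184, and at 236 and 183.6 CPM in G174. All 4 tumors of G164 and G184 lay above all 4 tumors of G144 and G174. The means were 194 ± 21.7 CPM in G144, 400 ± 4.26 CPM in G164, 438 ± 77.7 CPM in G184 and 210 ± 36.8 CPM in G174 (SD, n = 2 tumors each). Rb1 was thus 2.06-fold higher in G164 than in G144 (log2 fold change 1.04, SE 0.17, adjusted p = 0.0322 from edgeR). It was 2.09-fold lower in G174 than in G184 (log2 fold change −1.06, SE 0.17, adjusted p = 0.0138). The homozygous change minus the heterozygous one was −2.11 on the log2 scale (SE 0.25, adjusted p = 0.00293). Between the control mice Rb1 was 2.26-fold higher in G184 (log2 fold change 1.17, adjusted p = 0.0114), and between the Cre-positive mice 1.91-fold lower in G174 (log2 fold change −0.93, adjusted p = 0.0286). Neighbours in the order G184, G164, G174, G144 differed only at the step from G164 to G174.

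The call of Rb1 in heterozygotes was lost without either tumor of G144 (adjusted p = 0.201 without tumor 6 and 0.0865 without tumor 8) or of G164 (0.121 without tumor 3 and 0.157 without tumor 6), with log2 fold changes of 0.92 to 1.16. In homozygotes it was lost without tumor 9 of G184 (adjusted p = 0.0694) and when only the mice compared were fitted (0.0569). Between the controls it was lost without tumor 6 of G144 (adjusted p = 0.0894) or tumor 9 of G184 (0.0632), and between the Cre-positive mice without any of their tumors (0.0630 to 0.150) or with only these mice fitted (0.0535). Without tumor 6 of G144 the test over the 4 mice also missed it (0.0527). The difference between the changes was called in all 8 fits that left out a tumor, with adjusted p of at most 0.0190. Rb1 overlaps Rcbtb2 and Lpar6 on the other strand by 488 and 408 exonic bases, and 3.98% of its stranded counts lay on the strand opposite to it.

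Ccnd2, the D-type cyclin expressed in many blood cells, lies on the minus strand of chromosome 6 from 127125162 to 127152193 (ENSMUSG00000000184.12). It was at 21.4 and 19.95 CPM in G144, at 38.9 and 45.9 CPM in G164, at 37.4 and 56.4 CPM in G184, and at 19.6 and 25.1 CPM in G174. The tumors of G164 and G184 again lay above all tumors of G144 and G174. Across all genes tested, 26.5% had no overlap between these sets of 4 tumors, and of the 10 members only Rb1 and Ccnd2 had none. Ccnd2 was 2.10-fold lower in G174 than in G184 (log2 fold change −1.07, SE 0.22, adjusted p = 0.0248 from edgeR). Its level in G164 was 2.05-fold that in G144, which missed the threshold (log2 fold change 1.03, SE 0.22, adjusted p = 0.0501). Its homozygous change minus its heterozygous one was −2.11 (SE 0.31, adjusted p = 0.00559), and Ccnd2 was 2.27-fold higher in G184 than in G144 (1.18, SE 0.22, adjusted p = 0.0202).

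The call of Ccnd2 in homozygotes was lost without tumor 9 of G184 (adjusted p = 0.108) or tumor 1 of G174 (0.0872), and when only the mice compared were fitted (0.0754). Between the controls it was lost without tumor 6 or tumor 8 of G144 (0.108 and 0.0825) or tumor 9 of G184 (0.0939). In the test over the 4 mice it was lost in each fit that left out a tumor of G144 or G164 (0.0582 to 0.0805). The heterozygous change passed the threshold without any tumor of G174 or G184 (0.0384 to 0.0484), and by DESeq2 (0.000474). Its difference between the changes was called in all 8 such fits, with adjusted p of at most 0.0280.

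Most markers of blood cells and the interferon response genes moved with Rb1 and Ccnd2. The 6 leukocyte markers summed to 410 to 505 CPM in the 4 tumors of G144 and G174 and to 512 to 629 CPM in those of G164 and G184. Of these markers 5 rose in heterozygotes and 5 fell in homozygotes. The other, Lcp1, went the opposite way, by −0.26 and 0.31 on the log2 scale, and was not called. At 232 to 388 CPM over the 8 tumors, Lcp1 made up a large part of these sums. The 8 T-cell markers summed to 6.93 to 11.2 CPM in the tumors of the younger mice and to 22.1 to 29.3 CPM in those of the older mice, with 4 of 8 higher in heterozygotes and 8 of 8 lower in homozygotes. The 8 macrophage and dendritic markers summed to 269 to 360 CPM in the younger and 512 to 690 CPM in the older mice, with 2 of 8 higher in heterozygotes and 6 of 8 lower in homozygotes. The 7 B-cell and plasma-cell markers summed to 2.79 to 9.68 CPM in the younger mice. In the older mice they summed to 32.5 and 29.2 CPM in G184 and to 324 and 213 CPM in G164. Ighm made up most of the sums in G164, at 277 and 159 CPM. Of these markers 3 of 7 were called higher in heterozygotes and 1 of 7 lower in homozygotes. No marker of these 4 lists was at 0 counts in any tumor. The 11 interferon response genes summed to 328 to 709 CPM in the younger and 945 to 2926 CPM in the older mice, with 7 of 11 higher in heterozygotes and 10 of 11 lower in homozygotes. The summed basal (133 to 433 and 310 to 981 CPM), fibroblast (1044 to 2019 and 1527 to 3005 CPM), endothelial (112 to 163.9 and 159 to 187 CPM) and adipocyte markers (9.58 to 45.03 and 33.8 to 130 CPM) overlapped between the younger and the older mice. Their list medians were above 0 in heterozygotes (1.05, 0.94, 0.19 and 1.53) and below 0 in homozygotes (−1.49, −0.21, −0.52 and −2.42 on the log2 scale), with 0, 2, 1 and 1 genes called higher in heterozygotes and 0, 1, 1 and 1 called lower in homozygotes.

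The summed luminal markers also overlapped (4187 to 4617 and 3778 to 4238 CPM), with 1 of 8 lower in heterozygotes and 2 of 8 higher in homozygotes. Epcam, an epithelial adhesion protein, was at 1168 to 1318 CPM in the younger and 861 to 933 CPM in the older mice. Cldn4, a tight junction protein, was at 127 to 166 CPM in the younger and 84.9 to 108 CPM in the older mice. Both thus separated the mice in the direction opposite to Rb1 and Ccnd2, and they were picked out after their values were seen. Other luminal markers did not follow them. In mean level Krt19 (177 and 373 CPM), Krt8 (696 and 813 CPM), Krt18 (749 and 815 CPM) and Elf5 (182 and 210 CPM) were lower in G174 than in G184. The median log2 fold change of the 8 markers was −0.11 in heterozygotes (−0.59 to 0.02) and −0.01 in homozygotes (−1.08 to 0.58). Of all genes tested, 26.5% separated the younger from the older mice in either direction. The part of other cells and of the interferon response in the levels of Rb1 and Ccnd2 was not tested.

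Over the 8 tumors, the protein-coding genes of at least 5 CPM whose log2 CPM followed Rb1 most closely were Setbp1, Inpp5d and Tlr13 (Pearson r = 0.991, 0.990 and 0.989), the last of these a receptor of bacterial RNA in endosomes. Those most like Ccnd2 were Rel, a subunit of NF-kappa B, Igfbp5 and Ncf4, a subunit of the phagocyte oxidase (r = 0.991, 0.990 and 0.988). Those most like Cdkn2c were Ccdc160, Bend5 and Pmvk (r = 0.989, 0.972 and 0.971). The best of 11448 genes are given, the points share libraries, and for Rb1 and Ccnd2 the tumors form separate sets of 4, so these values only describe likeness.

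Ccnd1 and Ccnd3 passed the test in no comparison. Ccnd1, the main cyclin D of mammary epithelium, lies on the minus strand of chromosome 7 from 144929931 to 144939925 (ENSMUSG00000070348.5). It was at 316 and 450 CPM in G144, at 362 and 310 CPM in G164, at 293 and 253 CPM in G184, and at 107 and 352 CPM in G174. Both tumors of G184 lay below those of G144 and G164, which overlapped, and tumor 1 of G174 lay below the other 7. The means were 383 ± 94.4, 336 ± 36.9, 273 ± 28.2 and 230 ± 173 CPM in this order (SD, n = 2 tumors each). The log2 fold change was −0.19 (95% interval −1.32 to 0.94, adjusted p = 0.841 from edgeR) in heterozygotes and −0.25 (95% interval −1.38 to 0.88, adjusted p = 0.755) in homozygotes. Without tumor 6 of G174 it was −1.35 in homozygotes (adjusted p = 0.0307), and without tumor 1 of G174 it was 0.37. Ccnd1 shares 1100 exonic bases with LTO1 on the other strand. The unstranded column, which drops reads that fit both genes, held 95116 counts of Ccnd1 over the 8 tumors, against 151708 on the reverse strand.

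Ccnd3, the D-type cyclin found in most tissues, lies on the plus strand of chromosome 17 from 47505051 to 47599691 (ENSMUSG00000034165.16). It was among the steadiest members, between 49.8 and 66.8 CPM in the 8 tumors. Tumor 1 of G174, where Ccnd1 was lowest, had the highest level of Ccnd3. Its log2 fold change was −0.05 (95% interval −0.36 to 0.25, adjusted p = 0.829 from edgeR) in heterozygotes and 0.26 (95% interval −0.04 to 0.57, adjusted p = 0.212) in homozygotes.

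Cdkn1a, which encodes the p53 target p21, lies on the plus strand of chromosome 17 from 29090976 to 29100727 (ENSMUSG00000023067.14). It was at 19.5 and 27.2 CPM in G144, at 17.0 and 20.4 CPM in G164, at 16.3 and 17.8 CPM in G184, and at 29.5 and 24.6 CPM in G174. The tumors of G174 lay above those of G164 and G184, and a tumor of G144 lay within the range of G164. Cdkn1a missed the threshold in heterozygotes (log2 fold change −0.32, SE 0.19, adjusted p = 0.344 from edgeR) and in homozygotes (0.67, SE 0.19, adjusted p = 0.0652). The difference between the changes, 0.99 on the log2 scale, was called (SE 0.28, adjusted p = 0.0398). That call was lost in 6 of the 8 fits that left out a tumor, without tumor 8 of G144 (adjusted p = 0.0831), tumor 3 or 6 of G164 (0.130 and 0.0709), tumor 1 of G174 (0.0891) or tumor 6 or 9 of G184 (0.104 and 0.0859). It was also lost with scaling by library size (0.0523) and in the first run alone (0.0550), and by DESeq2 the homozygous change was called (0.0168).

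Cdkn1b, which encodes p27, lies on the plus strand of chromosome 6 from 134920401 to 134925513 (ENSMUSG00000003031.14). Its level kept within 138 and 173 CPM in the 8 tumors, and both ends of that range were tumors of G184. The means were 159 ± 9.94 CPM in G144, 144.5 ± 4.75 CPM in G164, 155 ± 24.97 CPM in G184 and 156 ± 1.23 CPM in G174 (SD, n = 2 tumors each). The log2 fold change was −0.13 (95% interval −0.43 to 0.16, adjusted p = 0.544 from edgeR) in heterozygotes and 0.01 (95% interval −0.29 to 0.30, adjusted p = 0.968) in homozygotes. Both intervals were the narrowest among the 10 genes.

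**Figure D3:**
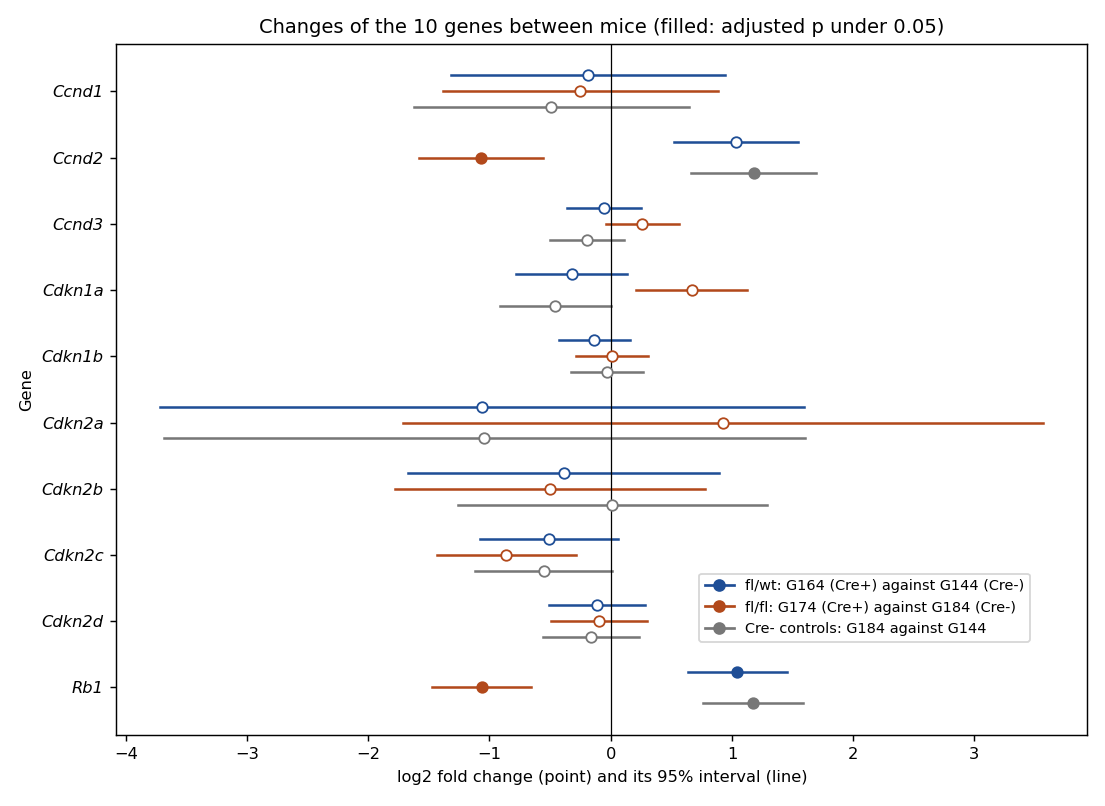
Log2 fold change of each gene with its 95% interval for G164 against G144, G174 against G184 and the control mice G184 against G144; filled points have an adjusted p under 0.05. Rb1 and Ccnd2 lie on opposite sides of 0 in the heterozygous and homozygous comparisons, and the control mice differ by as much (1.17 for Rb1 and 1.18 for Ccnd2).

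No INK4 gene was called between a KO mouse and its control. Cdkn2c, which encodes p18Ink4c, lies on the minus strand of chromosome 4 from 109660876 to 109667189 (ENSMUSG00000028551.14) and was the INK4 gene that varied between mice. It was at 28.7 and 35.05 CPM in G144, at 19.6 and 25.2 CPM in G164, at 26.5 and 16.9 CPM in G184, and at 11.1 and 12.8 CPM in G174. Both tumors of G174 lay below the other 6 and both tumors of G144 above them, with G164 and G184 overlapping. The test over the 4 mice gave an adjusted p of 0.0450 (edgeR), and no neighbours in the order of means differed by their own test. On the log2 scale Cdkn2c changed by −0.51 in heterozygotes (SE 0.24, adjusted p = 0.240), by −0.86 in homozygotes (SE 0.24, adjusted p = 0.0597) and by −1.41 for G174 against G144 (SE 0.25, adjusted p = 0.178). The call over the 4 mice needed every tumor of G144 (adjusted p = 0.0993 and 0.117 without them), G164 (0.0839 and 0.0923) and G174 (0.123 and 0.0859), and it was lost with scaling by library size (0.0530). By DESeq2 Cdkn2c was called in homozygotes and for G174 against G144 (adjusted p = 0.00845 and 3.15e-05).

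Cdkn2a and Cdkn2b, whose promoters lie next to each other on chromosome 4, varied between tumors of a mouse more than between mice. Cdkn2a (ENSMUSG00000044303.6, 89274471 to 89294653, minus strand) encodes p16Ink4a and, from another reading frame, p19Arf, which stabilizes p53. It was at 2.19 and 7.33 CPM in G144, at 2.50 and 2.07 CPM in G164, at 3.301 and 1.31 CPM in G184, and at 0.503 and 8.28 CPM in G174. The lowest and the highest tumor were thus both of G174, with 33 and 550 counts. The log2 fold change was −1.06 (95% interval −3.71 to 1.597, adjusted p = 0.597 from edgeR) in heterozygotes and 0.93 (95% interval −1.71 to 3.57, adjusted p = 0.605) in homozygotes. Without tumor 6 of G174 the homozygous value was −2.19, and without tumor 1 it was 1.84.

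Cdkn2b (ENSMUSG00000073802.5, 89306299 to 89311039, minus strand) encodes p15Ink4b, known as a target of TGF-beta. It was at 5.45 and 11.7 CPM in G144, at 6.12 and 6.93 CPM in G164, at 9.38 and 7.86 CPM in G184, and at 2.93 and 9.24 CPM in G174. Tumor 8 of G144 and tumor 6 of G174 were higher than their partners in Cdkn2a, Cdkn2b and Ccnd1 alike. The 6 skeletal muscle markers summed to 217 CPM in tumor 8 of G144 and to 272 CPM in tumor 3 of G164. In the other tumors they summed to 1.26 to 2.36 CPM, and the part of muscle in the levels of the members was not tested. The log2 fold change of Cdkn2b was −0.39 (95% interval −1.67 to 0.89, adjusted p = 0.694 from edgeR) in heterozygotes and −0.50 (95% interval −1.78 to 0.78, adjusted p = 0.561) in homozygotes. Cdkn2d (ENSMUSG00000096472.2, chromosome 9 from 21288410 to 21291407, minus strand), which encodes p19Ink4d, ran from 5.84 to 7.62 CPM, and changed by −0.12 and −0.09 on the log2 scale (adjusted p = 0.706 and 0.737).

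The partners of the D-type cyclins did not move as a pair. Cdk6 was at 35.8 and 37.6 CPM in G144, at 47.0 and 59.4 CPM in G164, at 58.0 and 62.8 CPM in G184, and at 33.1 and 28.0 CPM in G174. Cdk4 was at 193 and 186 CPM in G144, at 127 and 131 CPM in G164, at 124 and 113 CPM in G184, and at 160 and 195 CPM in G174. Cdk6 was thus higher, and Cdk4 lower, in all tumors of G164 and G184 than in any tumor of the other mice. Of all genes tested, 26.5% had no overlap between these sets of tumors, and Cdk4 and Cdk6 were picked after their values were seen. In homozygotes Cdk6 fell by 0.98 and Cdk4 rose by 0.58 on the log2 scale (adjusted p = 0.0104 and 0.0246 from edgeR). The heterozygous changes of 0.54 and −0.56 missed the threshold (adjusted p = 0.0818 and 0.0510). The differences between the changes were −1.52 for Cdk6 and 1.14 for Cdk4 (adjusted p = 0.00422 and 0.00563). The control mice also differed, G184 against G144 by 0.72 for Cdk6 and −0.68 for Cdk4 (adjusted p = 0.0248 and 0.0174 from edgeR). Of the 6 genes of kinases and the CDK-activating kinase, these were the 2 called in homozygotes, and none was called in heterozygotes.

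Genes that E2F factors switch on were among those that moved in the opposite direction to Rb1, as were the mitosis genes given below. A link between Rb1 and these genes was not tested. Of 18 S-phase cyclins and E2F targets, 4 fell and none rose in heterozygotes, the median over the list being −0.72, and 6 rose and none fell in homozygotes, with a median of 0.63. The 4 that fell were Mcm5 (−1.09), Mcm2 (−0.68), Pcna (−0.59) and Mcm4 (−0.58), which load or ride on replicating DNA. Those that rose in homozygotes included Mcm4 (0.96), Cdt1 (0.91) and Mcm2 (0.69). In the difference between the changes 16 of the 18 genes were called, all higher, with Cdc6 (1.98) first. Between the control mice 16 of 18 were lower in G184. The summed level of the list was 735 to 1097 CPM in the tumors of the younger mice and 478 to 683 CPM in those of the older mice. Of all genes tested, 26.5% had no overlap between these sets of tumors. The shares of all genes called were 4.01% in heterozygotes, 13.1% in homozygotes, 25.1% in the difference and 12.6% between the control mice. The list was chosen with earlier results of these data known.

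Of 12 other pocket proteins and E2F or DP factors, Tfdp1, the partner of E2F proteins on DNA, was the gene called in both KO comparisons. It fell by 0.68 in heterozygotes and rose by 0.64 in homozygotes (adjusted p = 0.0468 and 0.0288 from edgeR), and the list had medians of −0.20 and 0.29. Between the control mice 3 of the 12 genes were called, all lower in G184, with Tfdp1 at −0.98 (adjusted p = 0.00979 from edgeR). Called in the difference between the changes were E2f7 (1.37), Tfdp1 (1.32) and E2f2 (0.95). Of 10 genes for the turnover of D-type cyclins and p27, Cks1b, a cofactor of the ubiquitin ligase subunit Skp2, fell by 0.75 in heterozygotes, and Skp1a rose by 0.51 in homozygotes. The difference was called for Skp2 (1.41), Cks1b (1.18) and Skp1a (0.97). Between the control mice Skp2 (−0.99), Cks1b (−0.76) and Skp1a (−0.59) were called lower in G184. Skp2 serves the breakdown of p27, whose transcript did not pass the test.

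Of 17 genes of the p53 pathway, none was called in heterozygotes, where the most abundant, Trp53inp1, changed by 0.04 (adjusted p = 0.946 from edgeR). In homozygotes Ccng1 (0.76) and Trp53 (0.69) rose and Sesn1 fell by 0.61 on the log2 scale. The list had medians of −0.04 in heterozygotes and 0.12 in homozygotes. Between the control mice Ccng1 alone was called, lower in G184 (−0.81). Cdkn1a, also a p53 target, missed the threshold in homozygotes (0.67, adjusted p = 0.0652 from edgeR). Of 9 Polycomb genes, whose complexes silence the Cdkn2a and Cdkn2b locus, Ezh2 fell by 0.70 in heterozygotes, and in homozygotes Suz12 (0.67) and Ezh2 (0.57) rose and Bmi1 fell by 0.33. Between the control mice Ezh2 (−0.80) and Suz12 (−0.61) were called lower and Phc1 (0.72) higher in G184. None of the 17 mitosis genes was called in either KO comparison, with medians of −0.85 and 0.72. In the difference between the changes 14 of them were called, all higher, with Birc5 (2.13) and Aurkb (2.04) first. Between the control mice 14 of the 17 mitosis genes were called, all lower in G184.

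**Figure D4:**
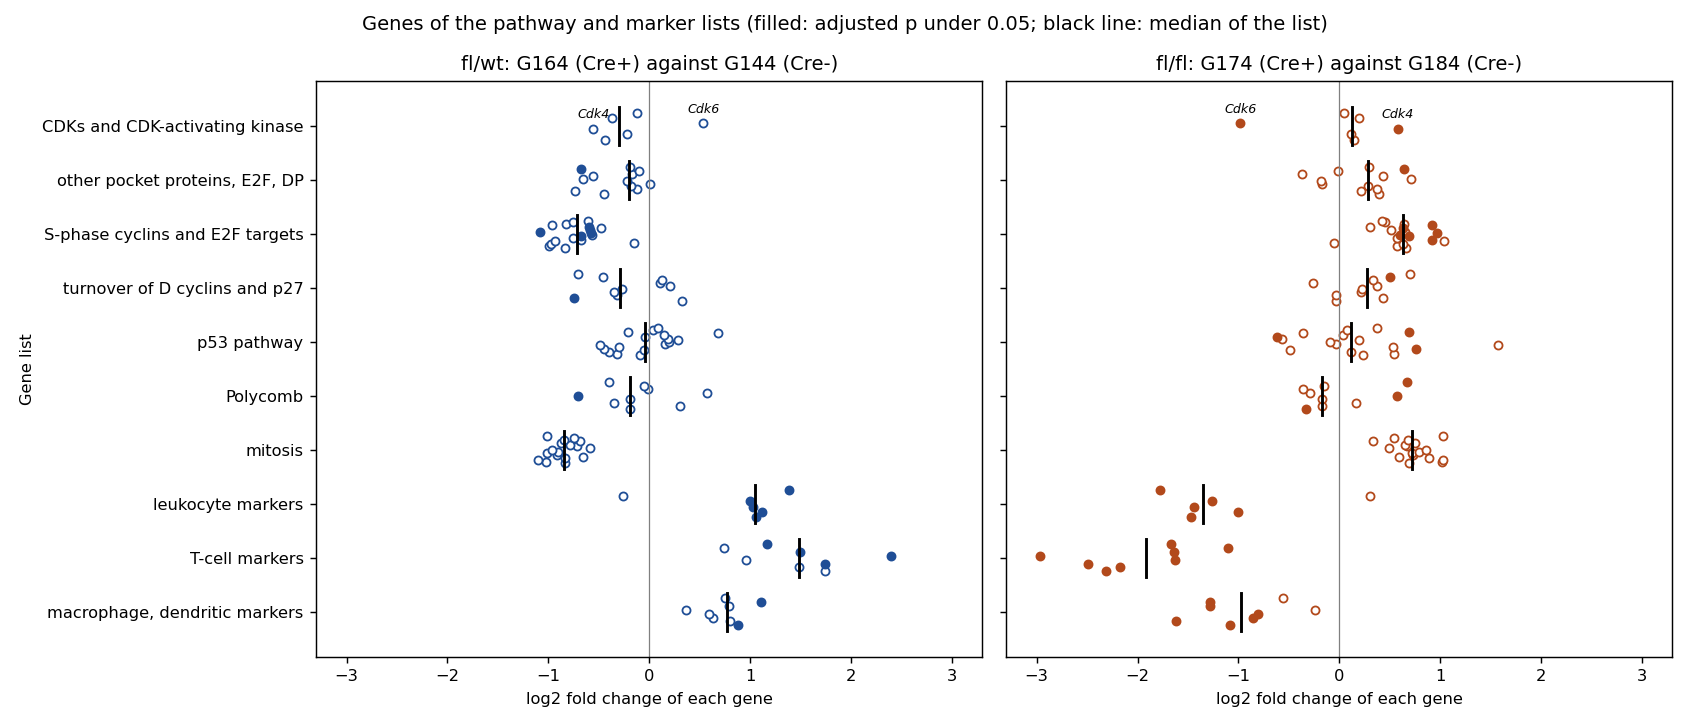
Log2 fold change of each gene of the cell cycle lists and of 3 blood cell marker lists in heterozygotes (left) and homozygotes (right); filled points have an adjusted p under 0.05 and black lines are list medians. The medians of the E2F targets (−0.72 and 0.63) and of the leukocyte markers (1.04 and −1.35) lie on opposite sides of 0, and Cdk4 and Cdk6 part from each other.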

How the data were processed

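Total RNA of 8 tumors was sequenced as stranded libraries after removal of ribosomal RNA, on 4 lanes in each of 2 runs. Base calls were converted with bcl2fastq, STAR placed the reads on GRCm38/mm10, and the authors deposited raw counts per gene for each lane as STAR writes them (unstranded, forward and reverse strand). They also deposited counts summed per mouse, which equal the unstranded sums. The annotation and the tool versions were not given in the sources used here. All 64 lane files were summed per tumor on the reverse strand (50346075 to 69264893 counts, with 48.0% to 52.3% of reads counted in a gene), and the 4.76% to 6.80% of stranded counts on the forward strand were left out. Reads outside genes entered neither library sizes nor tests. Places and lengths came from GENCODE M21, which held 54487 of 55385 identifiers with the same version.

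Genes were filtered by filterByExpr with the mouse as group, and after TMM scaling all 8 tumors entered a fit in edgeR 4.0.16 (R 4.3.3, quasi-likelihood; 4 residual and 3.06 prior degrees of freedom). Lanes and runs were not taken as replicates. Calls used a Benjamini-Hochberg adjusted p under 0.05, and standard errors were derived from the fold change and its F statistic. Named are all 10 members, up to 4 called genes with the largest change per pathway list or the most abundant gene where none was called, and the 3 genes most like each member called over the 4 mice. A gene that this rule picked from the E2F targets is not reported here. Cdk4 and Cdk6 are given in full beside these, chosen after their values were seen. The members and lists were chosen with earlier results of these data known. The test was repeated with DESeq2 1.42.0, with its size factors or library size as scaling, without the filter, on unstranded counts, on each run, on only the mice compared, and without each tumor in turn. Sums and tables were made with pandas 2.3.3 (Python 3.11.15).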

Additional observations from a re-analysis of the deposited data

Results flagged for a closer look

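The change between the heterozygous and the homozygous comparison differed, by a test of the difference itself, for 3 of the 10 genes. For Rb1 it was −2.11 on the log2 scale (SE 0.25, adjusted p = 0.00293 from edgeR), and Rb1 was higher in G164 than in G144 and lower in G174 than in G184 in all 8 tumors. For Ccnd2 it was −2.11 (SE 0.31, adjusted p = 0.00559), again with all 8 tumors in the same order. For Cdkn1a it was 0.99 (SE 0.28, adjusted p = 0.0398). The tumors of G144 and G164 overlapped in it. Of all genes tested, 25.1% had such a difference. G144 and G174 were the younger mice, so that gene dose and age cannot be told apart. The 8 T-cell markers summed to 6.93 to 11.2 CPM in the tumors of the younger and 22.1 to 29.3 CPM in those of the older mice, and their part in these differences was not tested.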

How the results depend on the processing

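In G164 against G144 the number of members called was 1, and it became 2 (Rb1 and Ccnd2) with DESeq2 size factors, scaling by library size, no filter, the second run alone, DESeq2 and a fit of only the mice compared. In G174 against G184 it was 2, and 4 without the filter and with DESeq2 (Cdkn1a and Cdkn2c added) but 0 with only the mice compared. In G174 against G144 it was 0, and 1 (Cdkn2c) without the filter and with DESeq2. In G174 against G164 it was 1, and 2 with scaling by library size and the second run alone, 3 without the filter and with DESeq2, and 0 with only the mice compared. The counts for the difference between the changes, for the control mice, for G164 against G184 and over the 4 mice stayed within 1.5 times of 3, 2, 0 and 3 under the alternatives other than leaving out a tumor.

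Leaving out each tumor in turn gave 0 to 2 members for G164 against G144, 0 to 3 for G174 against G184, 2 to 4 for the difference, 0 to 2 for the control mice, 0 to 3 for G174 against G164 and 0 to 3 over the 4 mice. A fold change that was not called turned its direction in heterozygotes for Ccnd1 (−0.43 to 0.0880), Ccnd3 (−0.15 to 0.0375), Cdkn2a (−1.70 to 0.0564) and Cdkn2b (−0.85 to 0.26), and in homozygotes for Ccnd1 (−1.35 to 0.37), Cdkn1b (−0.15 to 0.19), Cdkn2a (−2.19 to 1.84), Cdkn2b (−1.56 to 0.10) and Cdkn2d (−0.20 to 0.0292). Other alternatives turned uncalled values close to 0. With scaling by library size Ccnd3 was at 0.0212 in heterozygotes and Cdkn1b at −0.0174 in homozygotes, where Cdkn1b was also at −0.00566 in the second run and at −0.000981 with only the mice compared, and Cdkn2d was at 0.0150 in the first run. Of the fold changes and adjusted p-values reported for single members, 211 kept direction and side of the threshold under such alternatives, 12 gained and 6 lost a call and 5 turned. The fits that left out a tumor are not in these counts. They lost calls more often, and 9 values turned in them.

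Over all genes tested, G164 against G144 had 890 calls, and 2614 without the filter, 2802 with DESeq2, 1394 with only the mice compared and 16 to 1153 without a tumor. G174 against G184 had 2917 calls, and 4575, 4577, 980 and 557 to 2540 in this order. The control mice had 2787, and 4484 with DESeq2, 1534 with only these mice and 206 to 3215 without a tumor, and the difference had 5579, and 2218 to 4776 without a tumor. G174 against G144 had 20, and 605 without the filter, 515 with DESeq2, 7 with only these mice and 8 to 33 without a tumor, while G164 against G184 had 94, and 622, 369, 28 and 12 to 97. G174 against G164 had 1576, and 3597, 3130, 656 and 168 to 1371, and the test over the 4 mice had 2533, and 5946 without the filter, 5764 with DESeq2 and 781 to 2362 without a tumor. A tumor left alone was taken to vary like the others. No paired analysis was made, since the labels give each tumor only a number and no match between tumors of different mice.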
